A study of Mus musculus with 12 samples.

Results

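The replication licensing genes examined here were Mcm2, Mcm3, Mcm4, Mcm5, Mcm6, Mcm7, Cdc6, Cdt1, Pcna and Gmnn, 10 genes of the 21938 protein-coding genes in the GENCODE M21 mouse annotation. Their promoters were followed through prophase I of male meiosis in peak lists made from leChRO-seq, a run-on assay that maps RNA polymerase engaged on chromatin. Spermatocytes of untreated adult wild-type mice were enriched by STAPUT, which sediments testis cells by size and density, into leptonema/zygonema, pachynema and diplonema fractions, with 4 libraries for each. The enrichment does not remove every cell of other stages, and the paper reports elongated spermatids as most of the contamination in all fractions. The study used DBA/2J and C57Bl/6J mice without naming the strain of each library. For each substage the authors deposited 1 list of dREG peaks, called on its merged libraries, where dREG is a classifier that scores the paired, divergent initiation pattern of active promoters and enhancers.

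A peak was assigned to a gene when its edge lay less than 1000 bp from any annotated transcription start site (TSS) of that gene, and such a peak is called a promoter peak. By this rule the licensing genes held 23 of the 71107 peaks in leptonema/zygonema, 24 of 68352 in pachynema and 15 of 38603 in diplonema. Because dREG scores were not scaled between lists, each gene is described by its best-scoring promoter peak and by the percentile of that peak, the percentage of peaks in the same list with a lower score. The score ranks confidence in an initiation pattern and is not an amount of RNA. The lists hold no read counts, so the depth behind a peak cannot be read from them, and each substage has 1 list and no replicate spread, so the differences below are descriptions without a test. In such bulk fractions, fewer cells of a type and less transcription per cell cannot be told apart, and a promoter without a peak is not shown to be silent.

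Licensing is the step that permits an origin of replication to fire. The origin recognition complex marks the origin, and Cdc6 and Cdt1 then load the ring of the 6 MCM subunits, the replicative helicase, around the DNA. Geminin, the product of Gmnn, binds Cdt1 and blocks reloading after S phase, and Pcna is the sliding clamp that holds polymerases on the template. In germ cells DNA is replicated before leptonema, and no further S phase takes place before the haploid stages, so the substages measured here all follow the last replication of the lineage. In cycling cells genes of this family are classic targets of E2F transcription factors, and many S phase promoters also carry CCAAT boxes bound by NF-Y.

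The promoter sequences of the licensing genes are shown because letters of the E2F site were shared by most of them. Letters of the site in 4 spellings (TTTCCCGC, TTTCGCGC, TTTGCCGC and TTTGGCGC) were searched on both strands in RefSeq windows from 250 bases before to 50 after the annotated start (GRCm38.p6). Windows were available for 8 of the 10 genes, all except Mcm4 and Gmnn. The 250 bases upstream of Mcm6 (chr1:128359706-128359955, minus strand) and of Mcm5 (chr8:75109259-75109508, plus strand) represent a promoter without and a promoter with a diplonema peak. For Mcm3 (chr1:20820265-20820294, minus strand), Mcm7 (chr5:138172030-138172059, minus strand), Cdt1 (chr8:122568035-122568064, plus strand) and Cdc6 (chr11:98908002-98908031, plus strand), 30 bases around a match are given. All are written 5′ to 3′ on the strand of the gene, with E2F letters of either strand in capitals.
Mcm6: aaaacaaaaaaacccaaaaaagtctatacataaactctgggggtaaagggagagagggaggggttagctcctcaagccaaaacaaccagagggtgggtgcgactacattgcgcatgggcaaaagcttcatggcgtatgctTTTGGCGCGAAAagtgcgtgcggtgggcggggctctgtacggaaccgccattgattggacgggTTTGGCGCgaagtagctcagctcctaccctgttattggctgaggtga
Mcm5: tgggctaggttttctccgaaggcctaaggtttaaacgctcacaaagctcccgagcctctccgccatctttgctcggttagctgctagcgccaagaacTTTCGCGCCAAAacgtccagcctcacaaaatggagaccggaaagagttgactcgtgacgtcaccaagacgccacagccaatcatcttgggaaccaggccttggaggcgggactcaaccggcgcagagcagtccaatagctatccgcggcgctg
Mcm3: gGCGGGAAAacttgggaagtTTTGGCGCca
Mcm7: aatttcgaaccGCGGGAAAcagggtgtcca
Cdt1: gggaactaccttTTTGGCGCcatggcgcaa
Cdc6: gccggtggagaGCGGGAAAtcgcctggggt

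An E2F spelling was present in a window of 6 of the 8 genes (75%), Mcm3, Mcm5, Mcm6, Mcm7, Cdc6 and Cdt1, against 2.6% of all 27025 genes. Mcm7 had 2 windows. Its matches lay in the one at 138171834 to 138172133 and not in the one at 138171217 to 138171516, which overlaps its best peak. The Cdc6 window, at 98907901 to 98908200, overlapped its best pachynema peak by 160 bp but not its best peak in leptonema/zygonema or diplonema. Mcm6 had 3 matches, 2 of them overlapping in opposite orientation in the longer run of capitals, and Mcm5 had such an overlapping pair. The shorter core letters GCGGGAA or GGCGGGA, which overlap the E2F spellings, were found for 5 of the 8 genes (62.5%) and for 14.9% of all genes. CCAAT was found for 6 of 8 (75%), Mcm2, Mcm3, Mcm5, Mcm6, Mcm7 and Pcna, against 41.1% of all genes. The core letters of a MYB site, CNGTTA, were found for 2 of 8 (25%), Mcm5 and Mcm6, and for 25.9% of all genes, a share close to that of the background. A match of letters describes the window and does not show that a factor was bound.

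The same letters were counted under the peaks themselves, in windows of 201 bases centred on the best leptonema/zygonema peak, which could be read for all 10 genes. E2F spellings were found under the peaks of Mcm2, Mcm3, Mcm4, Mcm5, Mcm6 and Cdt1, 6 of 10 (60%), against 2.61% of the 13203 protein-coding genes with a peak in that list. The shorter core letters were under the peaks of 4 genes (40%), Mcm3, Mcm5, Cdc6 and Cdt1, against 17.5%, a smaller contrast than in the RefSeq windows. CCAAT was under the peaks of 7 genes (70%), now including Mcm4 and Gmnn, against 29.4%. CNGTTA was under the same 2 peaks as before (20%), against 13.6%. The pair of window types did not name the same 6 E2F genes: the Mcm7 and Cdc6 matches lay outside the peak-centred window, while Mcm2 had a match only there, and Mcm4 had no RefSeq window. The promoters with E2F letters in their RefSeq windows included Mcm5, the highest-ranked licensing gene in diplonema, as well as Mcm6 and Cdt1, which had no peak there. Of the genes with a RefSeq window, E2F letters were in 5 of the 5 that ranked lower in pachynema than in leptonema/zygonema among peaks and in 1 of the 3 that ranked higher, or in 5 of 6 and 1 of 2 when ranked among genes. In the peak-centred windows they were in 4 of 7 and 2 of 3 by rank among peaks, and in 4 of 8 and 2 of 2 among genes. No direction held over both kinds of window, and the split was not tested.

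**Figure D1:**
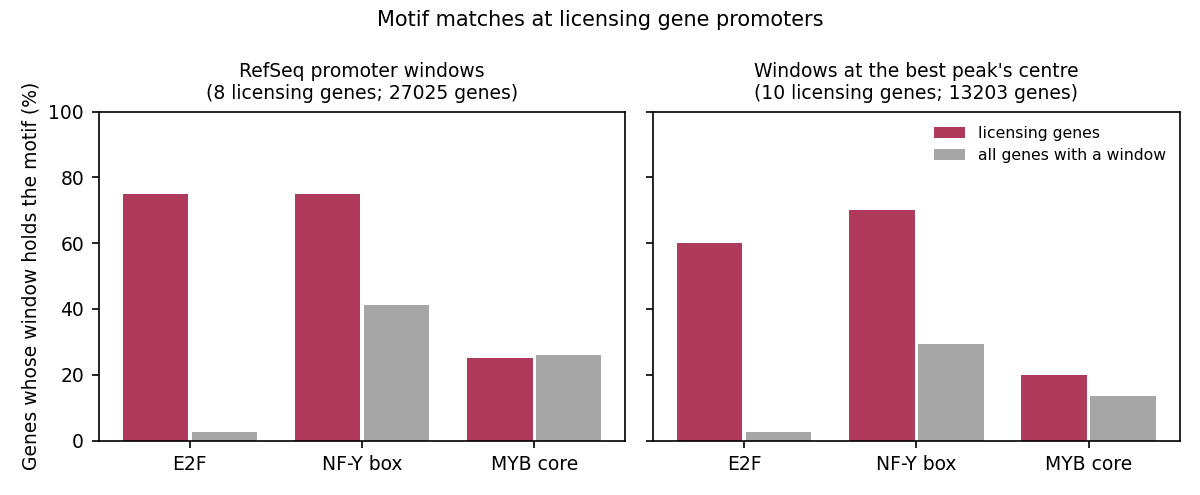
Share of genes, in percent, with a window that holds each motif, for the licensing genes and for all genes of the background, in RefSeq promoter windows (left) and in windows at the centre of the best leptonema/zygonema peak (right). E2F letters were found for 75% and 60% of the licensing genes against 2.6% and 2.61% of the background, and the MYB core for 25% and 20% against 25.9% and 13.6%.

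Every licensing gene had a promoter peak in leptonema/zygonema and in pachynema, 10 of 10 in both, and 8 of 10 had a peak in diplonema, where Mcm6 and Cdt1 had none. Among all protein-coding genes the corresponding shares were 60.2%, 60.5% and 51.6%, and 49.5% had a peak in all 3 lists, which 8 of the licensing genes did. In every list the best peak of each called gene covered at least 1 annotated TSS of that gene. Of the protein-coding genes called in leptonema/zygonema, 17.3% had no diplonema peak, against 2 of 10 here, a similar share, and 5.34% had no pachynema peak, against 0 of 10. The share without a diplonema peak was 67.6%, 54.6%, 27.8%, 6.92% and 1.79% for genes from 0 to 25, 25 to 50, 50 to 75, 75 to 90 and 90 to 100 on the leptonema/zygonema percentile. Both Mcm6 and Cdt1 stood in the range from 75 to 90, where 6.92% of genes had none. Mcm2, Mcm3, Mcm7 and Pcna stood in the same range and had a diplonema peak. These ranges were chosen after the ranks of Mcm6 and Cdt1 had been seen.

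**Figure D2:**
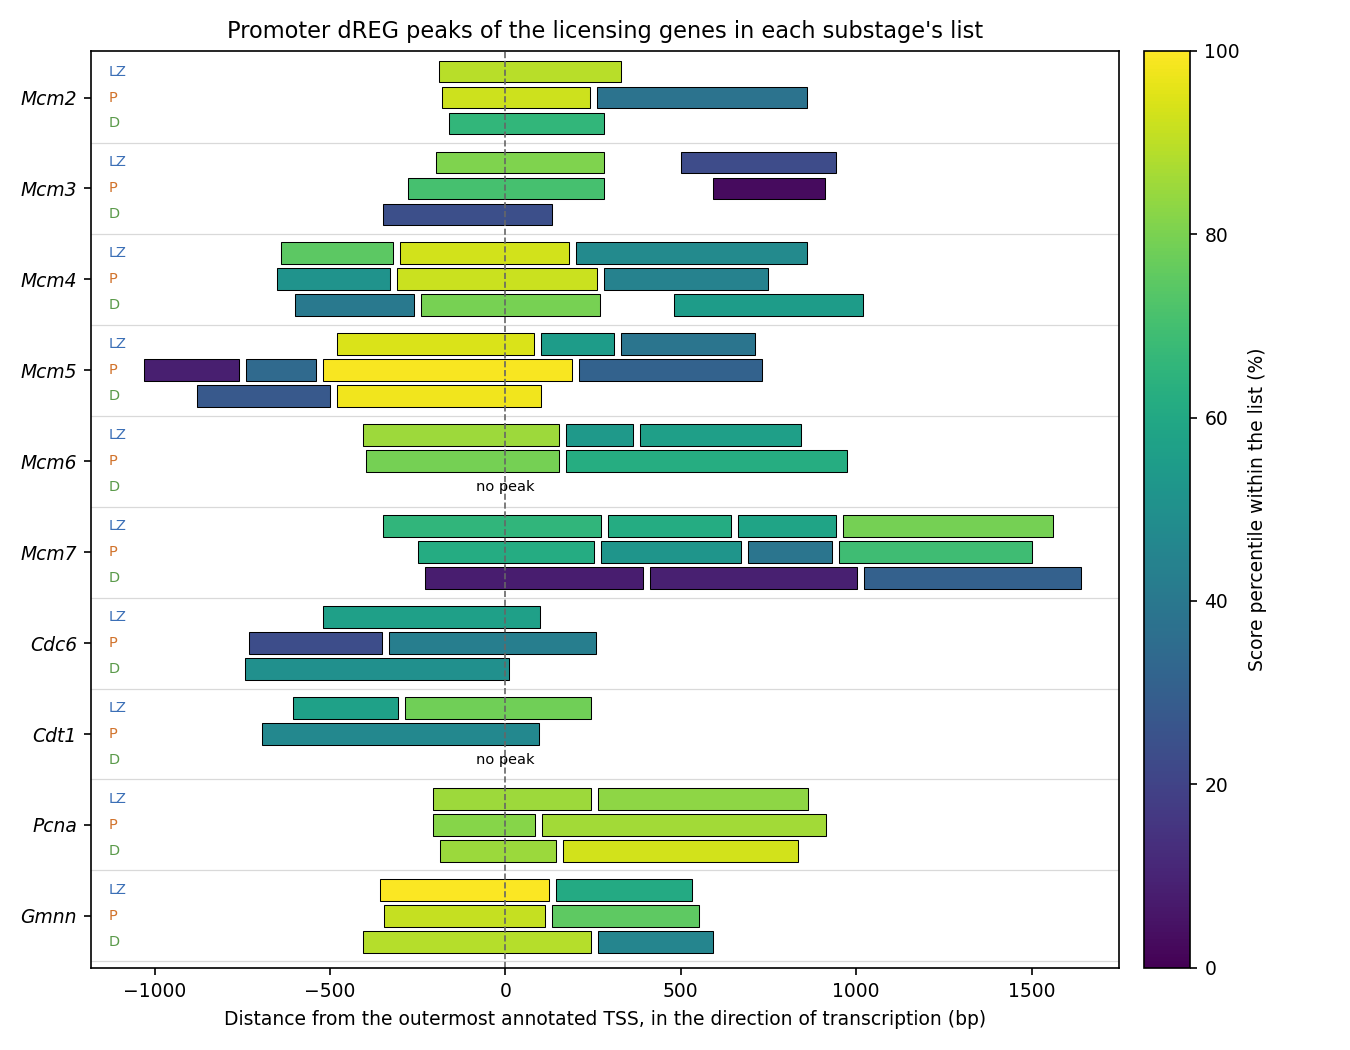
Position of every promoter peak of the 10 licensing genes, in bp from the outermost annotated TSS of the gene in the direction of transcription, with 1 row for each substage (LZ, leptonema/zygonema; P, pachynema; D, diplonema) and colour from dark violet to yellow for a score percentile from 0 to 100 within the list. Peaks over the TSS recur in the 3 rows of 8 genes, and Mcm6 and Cdt1 are marked as having no peak in the diplonema row.

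The loading factors had the lowest-ranked promoters of the set in pachynema. Cdc6 (ENSMUSG00000017499, chromosome 11, 98907801 to 98923940, plus strand) is the ATPase that recruits the helicase to the origin. Its best peak had dREG scores of 0.649, 0.509 and 0.531 in leptonema/zygonema, pachynema and diplonema, which placed it at the 56.3, 42.2 and 49.9 percentiles. It was the lowest of the 10 in the earlier 2 lists, but in diplonema it stood above Mcm3 and Mcm7. Ranked among all protein-coding genes instead of among peaks, where genes without a peak share the bottom of the order, Cdc6 stood at the 50.6, 46.5 and 58.9 percentiles, so that its diplonema position was above that in leptonema/zygonema on this scale and below it on the other.

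Cdt1 (ENSMUSG00000006585, chromosome 8, 122568015 to 122573554, plus strand), the partner of Cdc6 in loading, had the most negative difference of percentile among peaks between the earlier 2 lists. Its best peak scored 0.964 in leptonema/zygonema, at 122567731 to 122568260, and stood at the 78.2 percentile. In pachynema a single peak, at 122567321 to 122568110, overlapped both leptonema/zygonema promoter peaks of the gene. It scored 0.544 and stood at the 46.7 percentile, a difference of -31.6 points. The same difference was -16.4 points among all protein-coding genes, where that of Gmnn was more negative, and -54.3 points with the lists cut to equal length. No diplonema peak was within 1000 bp, and the nearest peak in that list lay 16505 bp from a Cdt1 TSS, at the promoter of Piezo1. Over the 12498 protein-coding genes called in both lists, the 10th to 90th percentile of the pachynema minus leptonema/zygonema difference ran from -14.3 to 14.9 points, and Cdt1 was the only licensing gene outside that range. By construction the range leaves out genes at both ends, so a single gene of this set outside it is no more than the background share. Of the 68 other replication genes called in both lists, described below, 8 lay under -14.3 points.

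Gmnn (ENSMUSG00000006715, chromosome 13, 24751845 to 24761923, minus strand), which encodes the inhibitor of Cdt1, had the highest-ranked promoter of the set in leptonema/zygonema. Its best peak, at 24761801 to 24762280, had a score of 1.39 and rank 489 of 71107, the 99.3 percentile. In pachynema the score was 1.15 and the percentile 91.1, and in diplonema 0.994 and 89.0. The inhibitor and the factor it binds therefore stood at the 91.1 and 46.7 percentiles in pachynema, and only the inhibitor had a peak in diplonema. Among all protein-coding genes the Gmnn promoter was at the 98.9, 80.1 and 84.4 percentiles, a difference of -18.8 points between pachynema and leptonema/zygonema.

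The 6 helicase subunits, which act together as 1 ring, did not follow a common course. In leptonema/zygonema they lay within a narrow band, from the 79.2 percentile of Mcm7 to the 94.2 percentile of Mcm5. In pachynema the band ran from 69.1 (Mcm7) to 99.0 (Mcm5), and in diplonema from 24.0 (Mcm3) to 97.9 (Mcm5), with no peak at Mcm6. Ranked among all protein-coding genes, the bands of the called subunits were 65.1 to 89.7, 56.4 to 97.9 and 52.2 to 96.7. The diplonema band leaves out Mcm6, which had no peak there and shares the bottom of that order. Its width is therefore not compared with those of the earlier lists. In each list Mcm5, Mcm4 and Mcm2 were above Mcm3, Mcm7 and, where it was called, Mcm6.

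Mcm5 (ENSMUSG00000005410, chromosome 8, 75109569 to 75128439, plus strand) was the subunit with the highest-ranked promoter in all 3 lists. Its best peak scored 1.24 in leptonema/zygonema (rank 4070), 1.33 in pachynema (rank 641 of 68352) and 1.19 in diplonema (rank 819 of 38603). These are the 94.2, 99.0 and 97.9 percentiles. It was also higher in pachynema and in diplonema than in leptonema/zygonema when ranked among all protein-coding genes, by 8.23 and 6.99 points. The diplonema peak lay at 75109091 to 75109670, over the same 3 TSSs as in the other lists.

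Mcm4 (ENSMUSG00000022673, chromosome 16, 15623897 to 15637400, minus strand) scored 1.22, 1.16 and 0.849 in the successive substages, at the 93.1, 92.1 and 79.5 percentiles. Mcm2 (ENSMUSG00000002870, chromosome 6, 88883474 to 88898780, minus strand) scored 1.16, 1.17 and 0.679, at the 89.1, 92.2 and 65.7 percentiles. Both subunits thus ranked alike in leptonema/zygonema and pachynema, with differences of -1.02 and 3.08 points, and lower in diplonema than in pachynema, with differences of -12.5 points for Mcm4 and -26.5 points for Mcm2. These were -7.13 and -16.8 points among all protein-coding genes, and -6.41 and -20.4 points with the lists cut to equal length.

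Mcm3 (ENSMUSG00000041859, chromosome 1, 20802968 to 20820312, minus strand) scored 1.01, 0.803 and 0.376, at the 80.8, 70.7 and 24.0 percentiles. Mcm7 (ENSMUSG00000029730, chromosome 5, 138164583 to 138172422, minus strand) scored 0.981, 0.781 and 0.408, at the 79.2, 69.1 and 30.6 percentiles. These subunits stood next to each other in all 3 lists, each with a difference of -10.1 points between pachynema and leptonema/zygonema. From leptonema/zygonema to diplonema the differences were -56.8 points for Mcm3 and -48.6 points for Mcm7, both beyond the 10th percentile of the 10918 protein-coding genes called in both lists, -38.1 points. With a minimum score of 0.5, which is under the median of that list (0.532), neither diplonema peak was kept, leaving 6 of 10 genes. Ranked among all protein-coding genes, the same differences were -15.0 points for Mcm3 and -11.6 points for Mcm7. Genes without a peak fill the bottom of that scale, and 51.6% of protein-coding genes had a diplonema peak. Mcm3 and Mcm7 stood at the 52.2 and 53.5 percentiles there, near the lowest place open to a called gene. The sizes of the differences on both scales therefore cannot be compared.

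Mcm6 (ENSMUSG00000026355, chromosome 1, 128331590 to 128359664, minus strand) had best peaks of score 1.09 in leptonema/zygonema and 0.930 in pachynema, at the 85.3 and 79.0 percentiles. In leptonema/zygonema that peak lay at 128359511 to 128360070, over the annotated start and the upstream sequence printed above. The gene had 3 promoter peaks in leptonema/zygonema, 2 in pachynema and none in diplonema. The diplonema peak nearest to an Mcm6 TSS lay 56617 bp away, at Dars. Mcm6 was therefore the only helicase subunit without a peak in a list, although in both earlier lists it ranked above Mcm3 and Mcm7, which kept theirs.

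Pcna (ENSMUSG00000027342, chromosome 2, 132249162 to 132253314, minus strand) ranked higher in diplonema than in the earlier lists. Its best peak scored 1.09, 1.06 and 1.07 in leptonema/zygonema, pachynema and diplonema, the 85.2, 86.3 and 93.1 percentiles. The gene had 2 promoter peaks in every list, and the best of them was the one at the outermost TSS in leptonema/zygonema and the neighbouring one, inside the gene, in pachynema and diplonema. Both stood at the 81.8 percentile or above in all 3 lists. Ranked among all protein-coding genes, Pcna was at the 73.4, 72.0 and 89.8 percentiles, so that its pachynema position was above that in leptonema/zygonema on the scale of peaks and below it on the scale of genes, and its diplonema position was the highest on either.

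**Figure D3:**
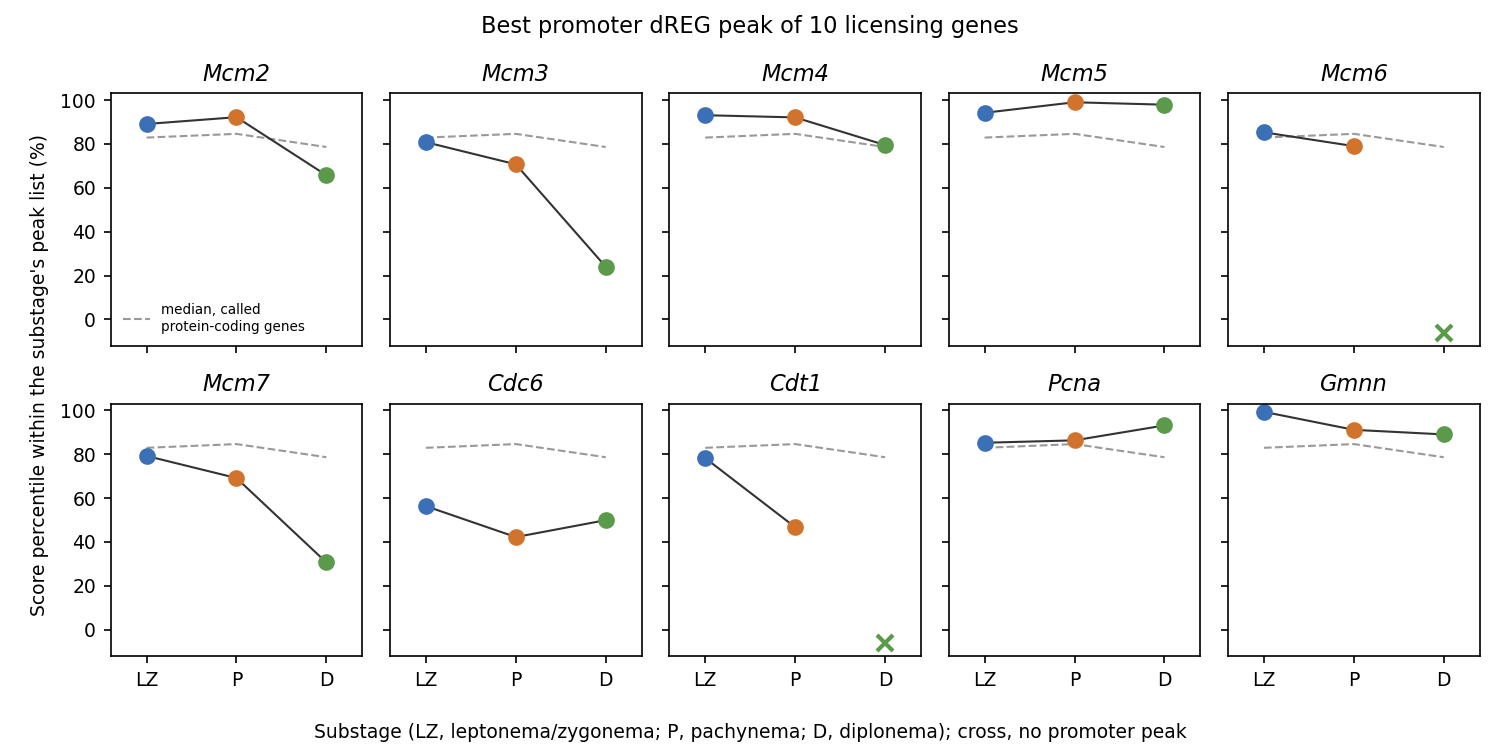
Score percentile of the best promoter peak of each licensing gene within the leptonema/zygonema, pachynema and diplonema lists, 1 panel for each gene, with a dashed line for the median of called protein-coding genes, a cross for no promoter peak, and no error bars because each substage has 1 pooled list. Mcm5 lies at 94.2 or above, Pcna ends at 93.1, Mcm3 and Mcm7 end at 24.0 and 30.6, and Mcm6 and Cdt1 have no diplonema peak.

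Set side by side, 7 of the 10 genes ranked lower in pachynema than in leptonema/zygonema, against 42.7% of the protein-coding genes called in both lists, and the median difference was -7.29 points against 1.07 points. The 3 that ranked higher were Mcm2, Mcm5 and Pcna. On the scale of all protein-coding genes, 8 of 10 ranked lower, against 49.2%, with Pcna joining the lower group. From pachynema to diplonema 6 of the 8 genes called in both ranked lower, against 72.8% of protein-coding genes, and between leptonema/zygonema and diplonema again 6 of 8, against 63.1%. Those shares are near the background. On the scale of all protein-coding genes, with a lost peak counted as lower, 7 of 10 ranked lower in diplonema than in pachynema and 7 of 10 lower than in leptonema/zygonema, against 52.2% and 52.1% of the genes called in either list. Among genes called in both lists the same scale gave 5 of 8 in both comparisons, against 44% and 44.1%. The 3 comparisons share their lists and are not independent of each other.

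The median percentile of the called licensing genes was 85.3 in leptonema/zygonema, 82.7 in pachynema and 72.6 (n = 8) in diplonema, beside 82.9, 84.6 and 78.6 for all called protein-coding genes. With the lists cut to equal length the medians of the called genes were 72.8 (n = 10), 75.8 (n = 9, since Cdc6, the lowest, was not called) and 72.6 (n = 8), and their order is not read because the genes behind them differ. More than 1 promoter peak was found at 8, 9 and 5 of the called genes (80%, 90% and 62.5%), beside 76.3%, 78.3% and 68.7% of called protein-coding genes. The best peaks had median widths of 525, 565 and 600 bp, beside 580, 610 and 570 bp.

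Promoter peaks of 4 genes lay within 1000 bp of a TSS of another gene, and there the parts of both genes in a score cannot be told apart. Prkdc, which encodes the catalytic subunit of DNA-dependent protein kinase, starts 466 bp from Mcm4 on the opposite strand. A separate peak covered the Prkdc start in every list, at the 74.9, 51.4 and 40.3 percentiles, below the peak over the Mcm4 TSS in each substage. Ap4m1, a subunit of an adaptor complex for vesicle traffic, overlaps the promoter region of Mcm7, with TSSs as close as 160 bp. The best Mcm7 peak covered 3 TSSs inside the annotated gene, while the peaks nearer the outermost TSS also covered Ap4m1 starts and stood at the 61.5 and 65.6 percentiles in leptonema/zygonema. In diplonema the 3 Mcm7 peaks stood at the 30.6, 8.9 and 7.99 percentiles, so all of them were weak there. The antisense transcript AV099323 starts 43 bp from Pcna, and the processed pseudogene Gm20587 starts 1019 bp from Mcm3, and 671 to 821 bp from the edge of the best Mcm3 peak. Among the 6 genes without such a neighbour (Mcm2, Mcm5, Mcm6, Cdc6, Cdt1 and Gmnn) 6, 6 and 4 had peaks in the successive substages, and 4 of the 6 ranked lower in pachynema than in leptonema/zygonema.

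Peaks centred inside the gene bodies, 1000 bp or more from any TSS of the same gene, were found at 1, 1 and 0 of the 10 genes in the successive lists. Among protein-coding genes the shares were 28.2%, 26.5% and 15.5%, and among the 10509 whose length lay between the shortest and the longest licensing gene 15.3%, 13.9% and 6.42%, close to the counts here. In pachynema Mcm4 had a peak at chromosome 16, 15628711 to 15629160, centred in an intron and overlapping an exon, 6146 bp from the nearest Mcm4 TSS, with a score of 0.325 (9.55 percentile). In leptonema/zygonema Mcm6 had a peak at chromosome 1, 128357301 to 128357600, within an intron, 2047 bp from the nearest Mcm6 TSS, with a score of 0.443 (31.3 percentile). No gene-body peak was found in diplonema, and neither of the 2 reached a score of 0.5. The limit of 1000 bp decided few assignments: the outermost peaks inside it were those of Mcm5 in pachynema, 759 and 539 bp from a TSS with scores of 0.319 and 0.452, and of Mcm3 in pachynema, at 540 bp with a score of 0.291. The nearest peaks outside it lay 1570, 1600 and 1640 bp from Pcna in pachynema, leptonema/zygonema and diplonema, near the TSS of Tmem230, with scores of 0.691, 0.522 and 0.5.

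For comparison, 72 other replication genes in 7 groups were treated the same way. Of these, 71, 68 and 59 had a promoter peak in the successive lists, at median percentiles of 89.3, 93.0 and 84. The shares of all protein-coding genes, 60.2%, 60.5% and 51.6%, stand beside these counts and those of each group below. From leptonema/zygonema to pachynema 27 of 68 (39.7%) ranked lower, with a median difference of 1.45 points, where 7 of the 10 licensing genes ranked lower. From leptonema/zygonema to diplonema 43 of 59 (72.9%) ranked lower, with a median difference of -7.37 points, against 63.1% and -4.38 points for protein-coding genes. Of the 71 called in leptonema/zygonema, 12 (16.9%) had no diplonema peak, against 17.3%. Ranked among all protein-coding genes, 33 of 68 (48.5%) were lower in pachynema and 35 of 59 (59.3%) in diplonema than in leptonema/zygonema, against 49.4% and 44.1% of the genes called in both lists. Of the 5 MCM-related genes in this set, described under other observations, 4 ranked lower in pachynema than in leptonema/zygonema on both scales. Their median differences were -2.36 points among peaks and -7.01 points among genes, beside -7.29 and -7.02 points for the licensing genes.

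**Figure D4:**
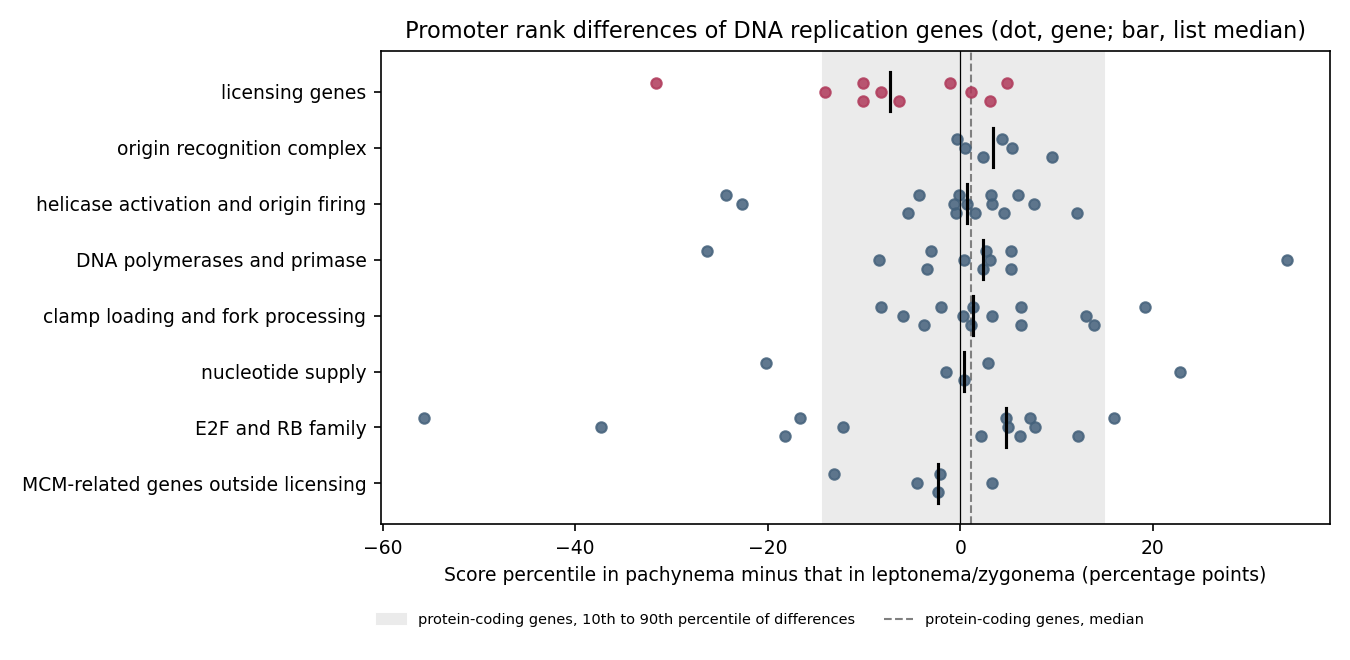
Score percentile in pachynema minus that in leptonema/zygonema, in percentage points, with 1 dot for each gene called in both lists, grouped by list (licensing genes on the top row), a bar at each list's median, and a shaded band and dashed line for the 10th to 90th percentile (-14.3 to 14.9) and median (1.07) of all protein-coding genes. The bar of the licensing genes stands at -7.29, the most negative of the 8 rows on this scale, and Cdt1 at -31.6 is their 1 dot outside the band. Ranked among all protein-coding genes, the medians were -7.02 points for the licensing genes and -7.01 points for the MCM-related genes outside licensing.

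The origin recognition complex, the platform on which licensing takes place, had peaks for 6 of 6 genes in every list, with median percentiles of 95.4, 98.5 and 92.3. Within it 1 of 6 ranked lower in pachynema than in leptonema/zygonema, against 42.7% of protein-coding genes, and 1 of 6 also when ranked among genes, against 49.4%. Orc1, the subunit whose abundance follows the cell cycle, stood at 88.3, 93.7 and 64.7, and Orc5 at 94.5, 98.8 and 99.3.

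Genes that activate the loaded helicase and fire origins were called in 16, 15 and 13 of 16 cases, with medians of 90.2, 94.7 and 82.2. Mcm10, needed to activate the helicase, was at the 77.1 percentile in leptonema/zygonema and had no peak afterwards. Gins4, a subunit of the GINS complex that travels with the helicase, was at 86.2 and 63.5 and had no diplonema peak, while Gins3 of the same complex was at 61.8, 74.0 and 38. Recql4, a helicase family protein, was at 72.1 and 47.8 and not called in diplonema, and Mtbp, which acts in firing, was at 89.1, 96.7 and 93.8.

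Polymerase and primase genes were called in 11, 11 and 9 of 12 cases, with medians of 90.8, 92.7 and 92.2. Prim1, the catalytic subunit of primase, was at 70.0 and 43.7 with no diplonema peak, and Pold1, the catalytic subunit of polymerase delta, at 8.94 and 42.9 with none. Pold4 had no peak in any list. Pola1 was at 92.8, 89.8 and 67.5 and Pold3 at 90.8, 93.2 and 94.5, so the subunits of polymerase delta did not share a course.

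Clamp loading and fork genes were called in 14, 13 and 13 of 14 cases, and all 13 called in both ranked lower in diplonema than in pachynema, with a median difference of -11.9 points (72.8% of protein-coding genes did). Ranked among genes 10 of the 13 did, against 44%, while Fen1, Rpa2 and Pclaf ranked higher. Rfc3, part of the complex that loads Pcna, was at the 77.0 percentile in leptonema/zygonema and not called later. Chaf1b, a subunit of the histone chaperone that binds Pcna, was at 76.5, 68.3 and 30.9, and Pclaf, a Pcna-binding factor, at 39.3, 53.2 and 41.4. The clamp itself ranked higher in diplonema (93.1) than in pachynema (86.3), and the difference from the group was not tested.

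Nucleotide supply genes were called in 6, 5 and 3 of 6 cases, against 60.2%, 60.5% and 51.6% of protein-coding genes. Rrm1, the large subunit of ribonucleotide reductase, stood at 80.5 and 60.3, Tyms, thymidylate synthase, at 53.7 and 76.5, and Tk1, thymidine kinase, at 26.3 in leptonema/zygonema alone. None of these had a diplonema peak, while Dut, which removes dUTP, was at 89.0, 91.8 and 82.2. In the leptonema/zygonema percentile ranges of Rrm1, Tyms and Tk1, 6.92%, 27.8% and 54.6% of protein-coding genes had no diplonema peak.

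The E2F and RB family, whose sites are described above, was called in 13, 13 and 10 of 13 cases, with medians of 86.7, 91.5 and 76.3. E2f5 was at 94.4, 57.2 and 23.4, and E2f6, a repressor of the family, at 82.3, 98.4 and 94.5. E2f2 (71.0 and 58.8), E2f4 (60.5 and 4.77) and Rbl2, the p130 pocket protein (99.2 and 81.0), had no diplonema peak. E2f1, an activator of S phase genes, was at 89.3, 95.6 and 21.9, and E2f3 at 88.6, 96.3 and 36.5, both named after their values were seen. E2F letters were in the RefSeq windows of 21 of the 58 other replication genes with a window (36.2%), against 2.6% of all genes, with 2 of 6 in the origin recognition complex, 5 of 10 among polymerases and none of 5 for nucleotide supply.

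Marker genes were read in the same lists to see which cells they held. Beside the counts of every marker set stand 60.2%, 60.5% and 51.6% of all protein-coding genes with a peak. Of 12 spermatogonial markers, the cells in which premeiotic S phase is prepared, 8, 8 and 7 had peaks in the successive lists, with median percentiles of 82.0, 82.8 and 66.2. Gfra1, Nanos2 and Nanos3 had none in any list. The highest was Dmrt1 in leptonema/zygonema (84.2) and Id4 in pachynema and diplonema (91.9 and 99.7). Between leptonema/zygonema and diplonema 5 of the 6 called in both ranked lower, against 63.1% of protein-coding genes, from Zbtb16 (71.3 and 66.2), Uchl1 (81.3 and 73.7) and Etv5 (83.2 and 70.4) to Kit, a marker of differentiating spermatogonia (82.3 and 16.8), and Dmrt1 (84.2 and 14.1). Ranked among genes, 3 of the 6 were lower, against 44.1%, and Zbtb16 and Uchl1 were higher. Id4 ranked higher on both scales (81.7 and 99.7 among peaks), Upp1 was called in diplonema alone (17.0), and Sall4 and Lin28a were not called there.

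Early meiotic markers were called in 11, 11 and 10 of 12 cases, and their medians were 89.8, 94.3 and 98.7. Stra8, which is induced at entry into meiosis, was at 65.0 and 50.9 and not called in diplonema, and Rec8, the meiotic cohesin, at 99.0, 87.1 and 4.74, whereas Sycp3, a component of the synaptonemal complex axis, was at 81.9, 94.3 and 98.8. Between leptonema/zygonema and diplonema 4 of the 10 called in both ranked lower, against 63.1% of protein-coding genes. These were Rec8, Dmc1 (86.2 and 46.7), Prdm9 (86.5 and 70.4) and Spo11 (86.4 and 81.0). Ranked among genes 3 of the 10 were lower, against 44.1%. Mei1 had no peak. Markers of pachynema and later spermatocytes were called in 9 of 10 cases in every list (Aurkc in none), with medians of 91.1, 91.8 and 97.2. Adam3 among them was at 1.91, 78.7 and 97.2, and 3 of the 9 ranked lower in diplonema than in leptonema/zygonema, against 63.1% of protein-coding genes. These were Mybl1 (87.6, 91.8 and 70.0), Ldhc (99.6, 98.8 and 98.4) and Spag6 (98.2, 99.8 and 97.0), and ranked among genes 3 of 9 were again lower, against 44.1%.

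Spermatid markers were called in 7 of 8 cases in every list (Tnp2 in none), with medians of 79.2, 76.6 and 71.7, and Prm1 and Prm2 shared 1 peak. Of 14 somatic markers 2, 5 and 3 were called. Sox9, a Sertoli cell factor, was at 21, 58.3 and 53.7, and Gata4 at 76.1, 79.9 and 43.0. Wt1 (26.9 and then 8.9), Cldn11 (62.1) and Cyp11a1 (27.9), without a peak in leptonema/zygonema, had 1 in pachynema, and of these Wt1 also in diplonema, while Amh, Insl3, Star, Cyp17a1, Hsd3b1, Acta2, Myh11, Ptprc and Adgre1 had no peak in any list. Peaks give no abundance, so summed levels of the markers cannot be given. The part that spermatogonial cells, spermatids or somatic cells play in the ranks of the licensing promoters was not tested.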

How the data were processed

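leChRO-seq libraries were made from prophase I fractions of wild-type mouse testis, 4 for each of 3 substages. Per the methods and labels, reads were collapsed on their molecular identifiers, adapter-trimmed and aligned by BWA against mm10, and the authors ran dREG at default settings on merged libraries. The dREG version is not given in the sources used here. The deposited lists give each peak a dREG score, with no fixed range and not scaled between lists, a p-value, whose adjustment is not stated, and a centre position. Both were used as the authors deposited them. Some low-scoring peaks carry a p-value of 0, such as the Mcm7 diplonema peaks with scores of 0.311 and 0.307. The best Mcm7 peak of that list, with a score of 0.408, has a p-value of 0.00403 from dREG. A limit on the p-value therefore does not select peaks as a limit on the score does.

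Here, distances from peak edges to GENCODE M21 TSSs, and score percentiles within a list, were computed with Python 3.11.15, numpy 2.4.6 and pandas 2.3.3, and were checked on simulated data. Coordinates are 1-based on GRCm38 (mm10). Motifs were counted on both strands of GRCm38.p6. All 10 licensing genes are named, with every gene of the other replication lists that lacked a peak in at least 1 list, the extremes of each list between leptonema/zygonema and diplonema, and neighbours within 1000 bp. The genes and lists were chosen with earlier results of these data known. No test was run, since each substage has 1 pooled list. Alternatives were a limit of 500 bp, peaks that cover a TSS, a minimum score of 0.5, a p-value of at most 0.01, lists cut to the 38603 best peaks, and other rankings.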

Additional observations from a re-analysis of the deposited data

How the results depend on the processing

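Counts of licensing genes with a promoter peak stayed close to the reported values when the TSS limit, score, p-value or list length was varied, with the lowest in diplonema, 6 with a score of at least 0.5 (without Mcm3 and Mcm7) and 7 with a p-value of at most 0.01 (without Mcm3). In lists of equal length Cdc6 was not called in pachynema. No gene-body peak was left (0 in leptonema/zygonema and 0 in pachynema) with a score of at least 0.5, with a p-value of at most 0.01, or in lists of equal length. The median percentile in leptonema/zygonema was 82.2 ranked among promoter-proximal peaks, 73.5 among all protein-coding genes and 72.8 in lists of equal length. In pachynema it was 77.6, 67.8 and 75.8, and in diplonema 67.2, 70.2 and 72.6, where the values for lists of equal length are over 10, 9 (without Cdc6) and 8 called genes. Restricting the set to the 6 genes without a neighbouring TSS, a choice made after seeing the data, gave 6, 6 and 4 called, 4 in all 3 lists, medians of 87.2, 85 and 77.3, and 4, 3 and 3 genes ranking lower in the pachynema to leptonema/zygonema, diplonema to pachynema and diplonema to leptonema/zygonema comparisons. The smaller counts follow from the smaller set. Differences changed sign for Pcna between pachynema and leptonema/zygonema (-0.263 among promoter-proximal peaks, -1.37 among genes), for Gmnn between diplonema and pachynema (4.23 among genes, 4.78 in lists of equal length) and for Cdc6 between diplonema and leptonema/zygonema (8.31 and 30.4), and the cause was not tested. In lists of equal length the pachynema minus leptonema/zygonema difference was 6.22 for Mcm2, -16.6 for Mcm3, -16.4 for Mcm7 and -14.5 for Gmnn, and the diplonema minus leptonema/zygonema difference was -40.7 for Mcm3 and -31.1 for Mcm7. No paired analysis was possible because the libraries of a substage were merged into 1 list, and leaving out a library could not be tried either. Read counts are not in the lists and depth was not matched between substages, so less depth and less initiation cannot be told apart where the diplonema list, the shortest, lacks a peak.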

Other observations

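Proteins of the MCM family or its regulators that do not belong to the licensing ring had promoter peaks in every list, 5 of 5. A peak in all 3 lists was found for 49.5% of protein-coding genes. Mcm8, a helicase of homologous recombination, stood at the 94.9, 98.2 and 86.8 percentiles in leptonema/zygonema, pachynema and diplonema, and its partner Mcm9 at 84.7, 80.2 and 61.9. Mcmdc2, a meiotic recombination factor, was at 90.9, 88.5 and 86.6, Mcmbp, which binds MCM subunits, at 72.5, 59.4 and 56.4, and Mcm3ap at 99.7, 97.6 and 92.4. All 5 ranked lower in diplonema than in leptonema/zygonema, with a median difference of -8.07 points, where 63.1% of protein-coding genes did, and the most negative difference among them was that of Mcm9, -22.8 points, beside -56.8 points for Mcm3 and -48.6 points for Mcm7. Ranked among all protein-coding genes, 4 of the 5 were lower, against 44.1%, with a median difference of -8.9 points, Mcmbp was higher (59.0 and 61.3), and the differences of Mcm3 and Mcm7 were -15.0 and -11.6 points. From leptonema/zygonema to pachynema 4 of the 5 ranked lower among peaks, against 42.7%, with a median difference of -2.36 points. Among genes it was also 4 of 5, against 49.4%, with a median of -7.01 points. The licensing genes had 8 of 10 and -7.02 points on that scale.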
